A study of Mus musculus with 2 samples.

Results

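Mir143 and Mir145a are the 2 microRNA (miRNA) genes of a small cluster on mouse chromosome 18 that is best known from smooth muscle. They were taken by name from the 1973 miRNA genes counted in the deposited files, and the naming rule uses no measured value. RNA below 30 nt was sequenced after isolation from kidneys of B6NCrl mouse embryos at 15.5 days of development, labelled healthy and with no treatment given. The samples form 1 group of 2 libraries, called biological replicates in the labels, and each library pools the kidneys of many embryos of both sexes (78 in replicate 1 and 62 in replicate 2). The design holds no other tissue, age or genotype, so the values below describe the levels of the pair, their ratio to each other, and how far they moved between the pools.

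Both miRNAs are processed from hairpins of a shared primary transcript, which serum response factor and its cofactor myocardin switch on in smooth muscle. They lower the translation of regulators such as Klf4, Klf5 and Elk1, and mice without the cluster have arteries with a thin, weakly contractile muscle layer. In the kidney, the cells known for this cluster are the smooth muscle of arteries and arterioles, other mural cells around vessels, the muscle layer of the ureter and the renin lineage, whose cells give rise to arteriolar smooth muscle.

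The genes lie on the minus strand of chromosome 18 in mm10 (positions from GENCODE M21). Mir143 (ENSMUSG00000065445.2) runs from 61649196 to 61649258 and Mir145a (ENSMUSG00000065592.1) from 61647825 to 61647894, so the hairpins measure 63 and 70 nt and stand 1301 nt apart. The long non-coding gene Carmn, named for its part in cardiac and smooth muscle cells, lies upstream on the same strand and ends 366 nt before Mir143. No annotated gene overlapped either hairpin on either strand, which makes both intergenic in this annotation. The files number both genes one version earlier than GENCODE M21, so the ends of the intervals the authors counted may differ from these positions.

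**Figure D1:**
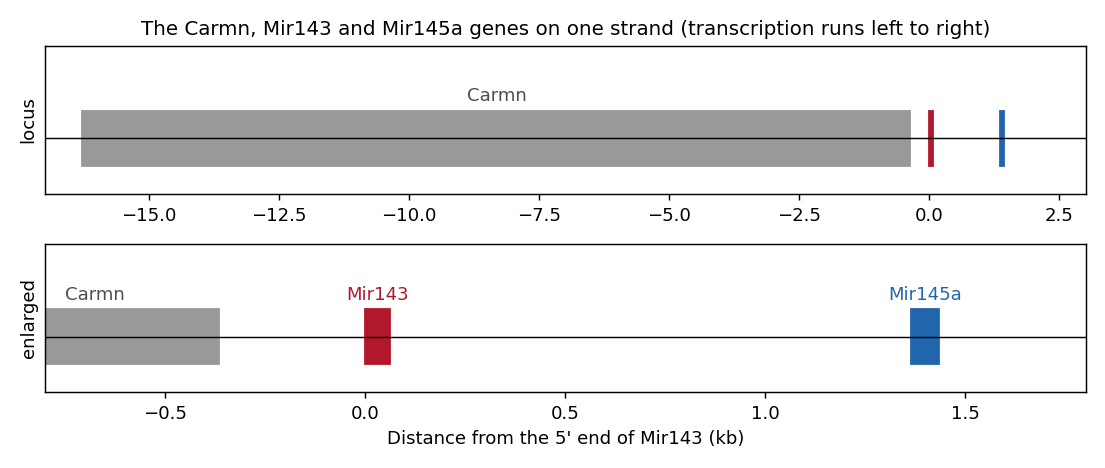
Map of Carmn (grey), Mir143 (red) and Mir145a (blue), drawn in the direction of transcription with the distance from the 5' end of Mir143 in kb. The upper panel shows the whole locus and the lower panel enlarges the hairpins, 1301 nt apart, with the end of Carmn 366 nt before Mir143.

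Counts are own-strand reads per hairpin, and a read of the 5' arm counts the same as a read of the 3' arm. Levels are given as CPM, the reads of a gene scaled to a total of 1000000 own-strand miRNA reads, or as the percent of those reads. The libraries held 7434182 and 5863293 such reads, which are 51.6% and 48.4% of all reads in replicates 1 and 2. Reads that matched several loci, 27.1% and 26.6% of all reads, are in no gene's count. Of the measured markers of kidney epithelium (the miR-200, miR-30 and adult-kidney miRNAs), 16 of 16 reached 1 CPM in both libraries, beside 394 of all 1973 genes. Their sum was 5.29% of reads in replicate 1 and 6.03% in replicate 2. Mir30c-1, Mir30c-2, Mir194-1 and Mir194-2 of this list share a stretch of 20 nt with another miRNA gene, so the sum can stand too low.

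Mir143 was among the most abundant miRNA genes of the kidney pools. It had 183002 reads in replicate 1 (24616 CPM) and 170127 reads in replicate 2 (29016 CPM). The mean was 2.68% ± 0.311 of miRNA reads (SD, n = 2), and the exact binomial 95% intervals, 2.45 to 2.47% and 2.89 to 2.92%, do not overlap. These intervals cover counting error only. The libraries carry no molecular identifiers that would separate PCR copies, so even that error can be understated. Mir143 stood at rank 13 in replicate 1, at rank 9 in replicate 2 and at rank 10 by the mean.

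Mir145a was far lower. It had 2504 reads in replicate 1 (337 CPM) and 2052 reads in replicate 2 (350 CPM), with a mean of 0.0343% ± 0.000930 of miRNA reads (SD, n = 2). Its intervals of 324 to 350 CPM and 335 to 365 CPM overlap. Its rank was 119 in replicate 1, 124 in replicate 2 and 122 by the mean, among 394 genes that reached 1 CPM in both libraries. The cluster as a whole thus held 2.495% and 2.94% of miRNA reads, and Mir145a supplied 1.35% and 1.19% of the cluster's own reads.

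**Figure D2:**
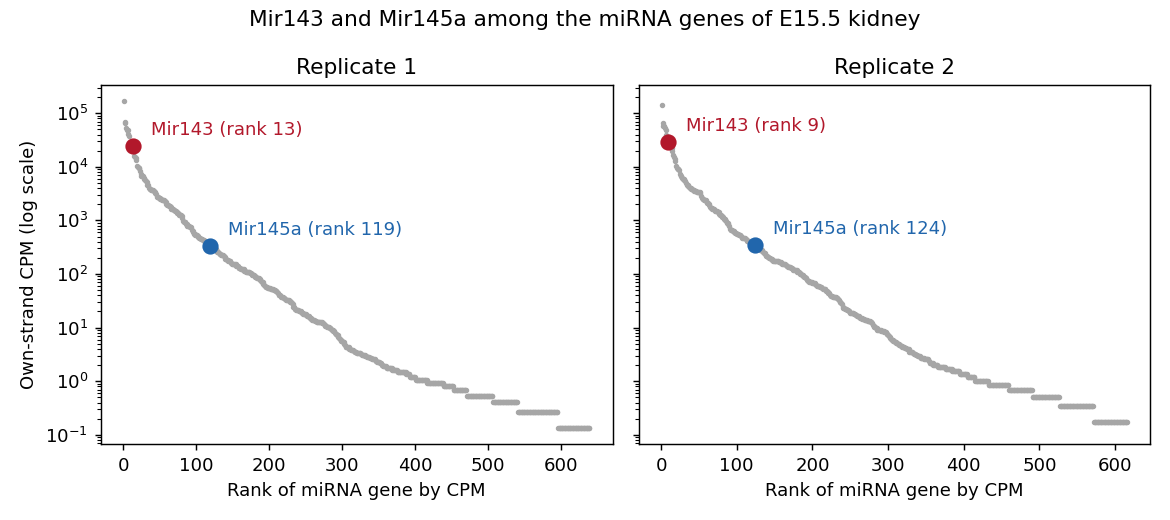
Own-strand CPM (log scale) of genes averaging 1 read or more, ordered by rank, in each library. Mir143 (red) stands at ranks 13 and 9 and Mir145a (blue) at ranks 119 and 124, on the same descending curve as the other genes (grey).

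The opposite strand of Mir143 and of Mir145a held 0 reads in both libraries, which allows up to 3 reads, or 0.404 and 0.512 CPM. The longest stretch that Mir143 shares with any of the other annotated miRNA hairpins is 11 nt. For Mir145a it is 17 nt, shared with Mir145b, a gene of similar sequence 7.37 Mb away on the same strand of chromosome 18 (ENSMUSG00000098366.1). Neither member therefore shares a stretch of 20 nt with another annotated miRNA gene, whereas 923 genes in the files do. Copies outside annotated miRNA genes were not searched. Mir145b had 0 reads in both libraries.

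By level, the nearest neighbours of Mir143 were Mir17 (28125 ± 62.0 CPM) above it and Mir26b (26395 ± 63.0 CPM), Mir196b (25231 ± 1222 CPM) and Mir130a (24333 ± 2437 CPM) below it (SD, n = 2 each). The values of Mir143 overlapped those of all 4 between the libraries, so the order from rank 9 to rank 13 is not settled. Mir99a (37929 ± 435 CPM) and Mir322 (40070 ± 1329 CPM), the next genes up, lay above both values of Mir143. Around Mir145a stood Mir501 (366 ± 53.8 CPM), Mir125b-1 (363 ± 64.8 CPM) and Mir671 (347 ± 27.4 CPM) above, and Mir16-2 (339 ± 3.25 CPM), Mir106a (334 ± 2.38 CPM) and Mir669l (331 ± 28.4 CPM) below. Of these, Mir106a lay just below both values of Mir145a, at 332 and 335 CPM. In all, 10 genes, ranked from 108 to 128, had values that overlapped those of Mir145a. Likeness here is closeness of mean CPM, since 2 libraries give no profile to correlate.

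Mir143 exceeded Mir145a by a wide margin in both pools. Mir143 had 73.1 reads for each read of Mir145a in replicate 1 (95% interval 70.3 to 76.1) and 82.9 in replicate 2 (79.4 to 86.6), a mean of 78.0 ± 6.95 (SD, n = 2). Per nucleotide of hairpin the ratio was 81.2 and 92.1. The ratio in replicate 2 was 1.13 times that in replicate 1 (95% Wald interval 1.07 to 1.20, two-sided Fisher's exact test on reads, p = 2.57e-05), a test that compares these libraries and covers counting error only. Adapters join some miRNAs more readily than others, so a ratio of reads is not a ratio of molecules, and the part of this in the ratio was not tested.

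Unequal partners were common among miRNA genes that lie close together. Of 81 pairs of neighbouring genes on 1 strand within 10 kb, each gene averaging 100 reads or more per library, the median pair differed 7.75-fold in mean CPM and 33 pairs differed by at least 10-fold. Mir143 and Mir145a had the 9th widest ratio. Nearest in width were Mir181a-1 over Mir181b-1 at 79.7, in which shared sequence makes counts uncertain, Mir18 over Mir19a at 74.8 and Mir369 over Mir412 at 68.7. Counting only the 56 pairs in which neither gene shares 20 nt with another miRNA gene, an alternative chosen after seeing the data, the pair was the 3rd widest, against a median of 7.32-fold. The log2 ratio of Mir143 to Mir145a moved by 0.18 between the libraries, and the median pair of the 81 moved by 0.33, with 26 pairs moving less.

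**Figure D3:**
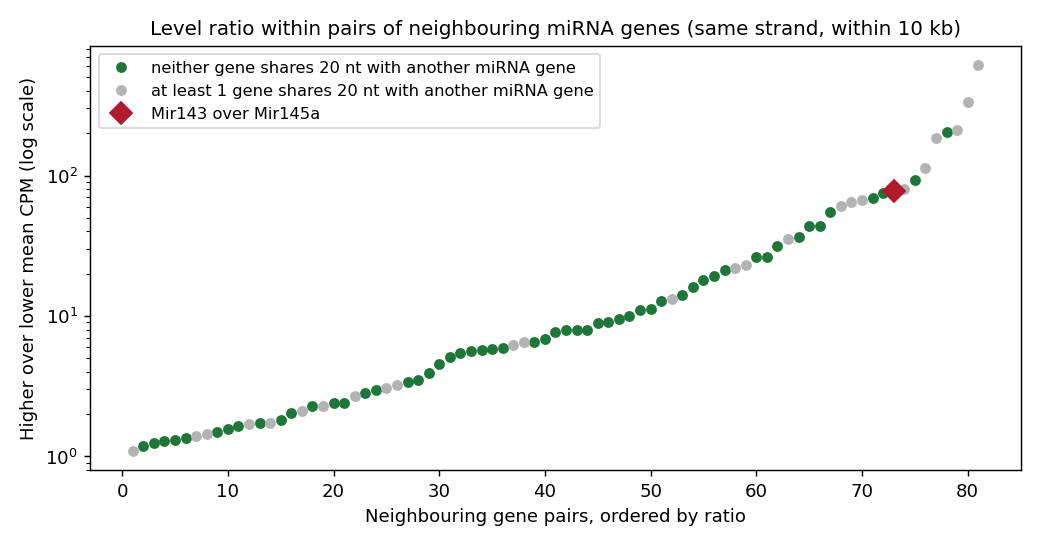
Ratio of the higher to the lower mean CPM (log scale) in the 81 pairs of neighbouring miRNA genes, in ascending order. Mir143 over Mir145a (red diamond) is the 9th widest, and 6 of the 8 wider pairs hold a gene that shares 20 nt with another miRNA gene (grey).

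Between the pools Mir143 was higher in replicate 2, with a log2 ratio of 0.24 (95% exact binomial interval 0.23 to 0.25), a 1.18-fold difference. A two-sided exact binomial test on the reads, scaled by library totals and with Benjamini-Hochberg adjustment over 378 genes, put the adjusted p at or below 1e-300, the smallest value recorded. By that adjusted p alone 55.8% of the tested genes were called, 40.2% higher and 15.6% lower in replicate 2, so the call is not particular to Mir143. With a difference of at least 2-fold also required, 6.08% of genes were called (5.82% higher and 0.265% lower in replicate 2), and neither Mir143 nor Mir145a was among them. Mir145a had a log2 ratio of 0.06 (interval -0.03 to 0.14), with an adjusted p of 0.28 by the same exact test. Mir143 was closer to the median log2 ratio of the tested genes, 0.15, than to the 2-fold line, and over the 264 genes averaging 100 reads or more the median absolute log2 ratio was 0.25.

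Marker miRNAs of other cells also moved between the pools. Their sums were 4.97% and 4.78% of reads for endothelium (1 of 1 measured gene at 1 CPM or more in both), 5.29% and 6.03% for kidney epithelium (16 of 16), and 0.103% and 0.0700% for striated muscle (5 of 8). They were 0.0319% and 0.0628% for hepatocytes (1 of 1), 0.0339% and 0.0466% for erythroid cells (2 of 2), and 0.0619% and 0.0700% for leukocytes (3 of 3). Over all 1973 genes, 394 reached 1 CPM in both libraries. Endothelial and striated muscle sums were thus lower in replicate 2 and the others higher. The log2 ratio of the sum was 0.19 for kidney epithelium and 0.18 for leukocytes, beside a median of 0.15 over the 378 tested genes. Members of the kidney epithelium list moved both ways. Of its 3 highest genes, Mir30e (log2 ratio 0.45) and Mir30a (0.56) were higher in replicate 2 and Mir429 (-0.24) was lower. The part of these markers in the difference of Mir143 was not tested.

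The size of these differences rests on the scaling. With TMM scaling all log2 ratios were lower by 0.13, which put Mir143 at 0.11 and Mir145a at -0.07. With DESeq2 size factors they were lower by 0.16, which put Mir143 at 0.08 and Mir145a at -0.10, so the direction of Mir145a flips under both scalings. With DESeq2 size factors Mir145a also passed the adjusted p alone, as lower in replicate 2 (exact binomial test, adjusted p = 0.0267), and over the scaling and strand alternatives its adjusted p lay between 0.0267 and 0.884. By library totals 55.8% of the 378 tested genes passed the adjusted p alone, and the share with DESeq2 size factors was not computed. In an edgeR fit with an intercept alone the common biological coefficient of variation was 0.230 over 378 genes. In that fit, which used TMM scaling, the biological coefficient of variation of the single genes was 0.150 for Mir143 and 0.214 for Mir145a. The fit draws these single-gene values toward those of other genes. The plain coefficient of variation of CPM over the 2 libraries, with scaling by library totals, was 11.6% for Mir143 and 2.71% for Mir145a. The 2 measures differ in kind as well as in scaling, so the order of the genes cannot be compared between them.

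**Figure D4:**
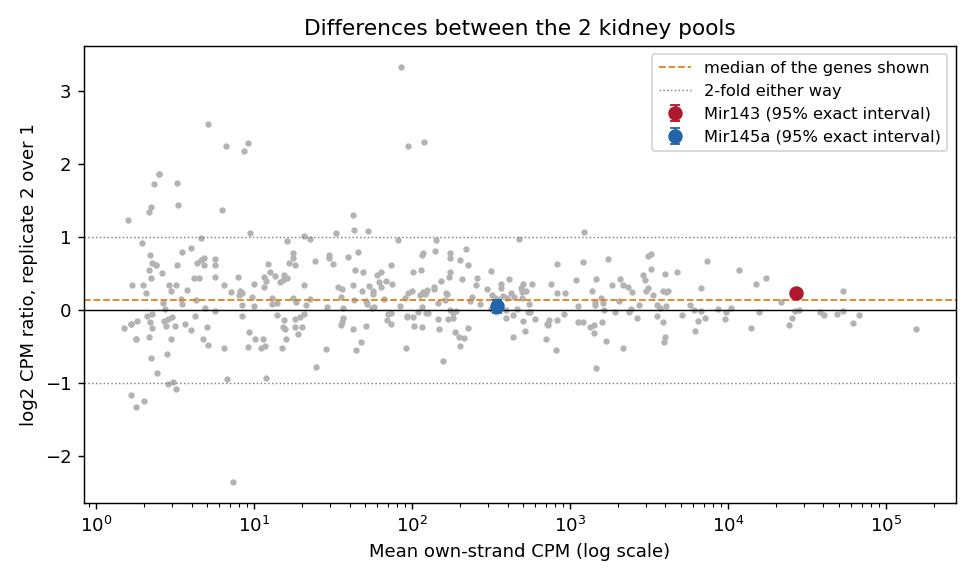
log2 CPM ratio of replicate 2 over replicate 1 against mean CPM (log scale) for the 378 genes averaging 10 reads or more (grey), with 95% exact binomial intervals on Mir143 (red) and Mir145a (blue). Both lie well within the dotted 2-fold lines, Mir143 above and Mir145a below the dashed median of 0.15.

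Read against markers of other cells, Mir143 was below the endothelial miRNA and far above the striated muscle miRNAs. Mir126a, which acts in endothelial cells from within Egfl7, had 49708 and 47805 CPM, so that Mir143 had 0.495 reads for each Mir126a read in replicate 1 and 0.607 in replicate 2. Of the stroma and mesenchyme list, 7 of 7 genes reached 1 CPM in both libraries, beside 394 of all 1973 genes. Their sum was 0.690% and 0.686% of reads, while Mir143 was higher in replicate 2. In this list 5 of the 7 genes share sequence with another miRNA gene, so the sum can stand too low. The leading genes of the list moved in different directions. Mir214, a miRNA of mesenchyme, had 3759 and 4499 CPM, and Mir143 had 6.55 and 6.45 reads for each of its reads. Mir140, known from cartilage, had 2523 and 1765 CPM (log2 ratio -0.52, adjusted p = 1.19e-191 by the exact binomial test). Mir199b, which shares sequence with another miRNA gene, had 526 and 474 CPM (log2 ratio -0.15, adjusted p = 6.65e-05 by the same exact test). In these pools of whole kidney, fewer cells of a type and less RNA per cell cannot be told apart.

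Mir206, the leading skeletal muscle miRNA, had 959 and 659 CPM, and Mir143 had 25.7 and 44.1 reads for each of its reads. Of the 8 measured striated muscle genes, 5 reached 1 CPM in both libraries, beside 394 of all 1973 genes. Among the 5 were Mir208b (30.9 and 18.1 CPM) and Mir499 (21.5 and 18.4 CPM), which lie within myosin genes. The list summed to 0.103% of reads in replicate 1 and 0.0700% in replicate 2, while the Mir143 and Mir145a sum was 2.495% and 2.94%. The defining genes Mir1a-1, Mir133a-1 and Mir133a-2 stood at 0, and all 3 share sequence with another miRNA gene, so reads from them can be among those set apart.

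A list of miRNAs reported to act on the state of vascular smooth muscle held 24 genes, Mir143 and Mir145a among them. Of 21 measured members, 17 reached 1 CPM in both libraries, beside 394 of all 1973 genes. The other 4 stood at 0 (Mir1a-1, Mir133a-1, Mir133a-2 and Mir145b). A further 3 listed genes, Mir146a among them, had no match by name and are in none of the counts of this list. A gene annotated as Mir146 had 83.3 and 119.7 CPM and is also outside these counts. Only 6 of the 21 measured members were above Mir145a by mean CPM, among them Mir143. The leading member, Mir10a, which favours smooth muscle differentiation from stem cells, had 167241 and 140739 CPM, but it is also a Hox cluster miRNA of many cell types. Mir21a, known from injured arteries, followed Mir143 with 6743 and 6695 CPM. Mir22, a differentiation-promoting miRNA of smooth muscle, had 2749 and 3293 CPM.

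The mature sequences of those leading list members and of the endothelial and skeletal muscle markers set beside Mir143 are shown so that the counted RNAs can be seen (RefSeq, GRCm38.p6; seed, bases 2 to 8, in capitals). The arm shown is the one usually taken as the guide strand, and the counts do not separate the arms. None of the 5 seeds is shared with another of the 5.
miR-10a-5p: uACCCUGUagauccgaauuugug
miR-21a-5p: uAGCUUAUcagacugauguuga
miR-22-3p: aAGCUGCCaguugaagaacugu
miR-126a-3p: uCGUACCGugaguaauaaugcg
miR-206-3p: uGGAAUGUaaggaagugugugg

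Platelet-derived growth factor raises Mir221 and Mir222 in smooth muscle, where they favour growth over contraction. Both lay below Mir145a in both libraries, and far closer to it than to Mir143. Mir221 had 223 and 253 CPM and Mir222 had 122 and 153 CPM. Mir145a had 1.51 and 1.38 reads for each read of Mir221. The pair is shown because its members share 1 seed (capitals).
miR-221-3p: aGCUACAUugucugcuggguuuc
miR-222-3p: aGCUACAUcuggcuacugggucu

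The lowest detected list members can have reads among those that match several loci, and the counts do not assign those reads to genes. Mir26a-1 had 9.68 and 13.3 CPM and Mir26a-2 had 40.8 and 45.0 CPM, and both encode the same mature miR-26a-5p, on chromosomes 9 and 10, so a full-length read from either matches both. Their levels cannot be set against those of Mir143 and Mir145a.
miR-26a-5p (Mir26a-1 and Mir26a-2): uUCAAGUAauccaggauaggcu

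**Figure D5:**
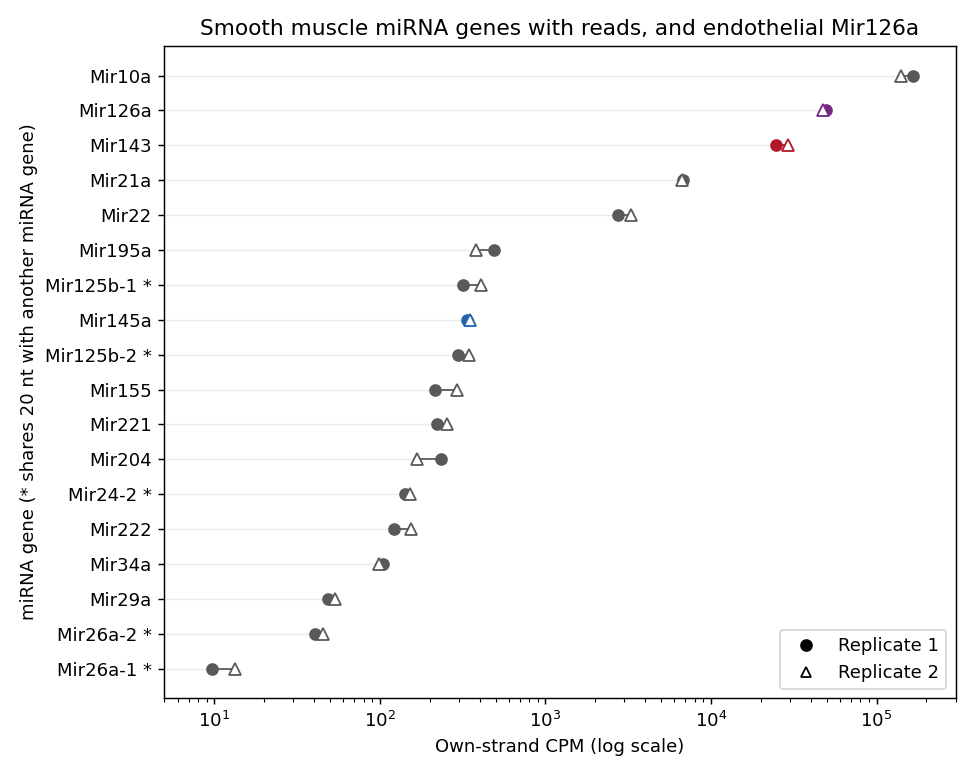
Own-strand CPM (log scale) in replicate 1 (circles) and replicate 2 (triangles) of the 17 smooth muscle list members with reads and of endothelial Mir126a (purple); asterisks mark genes that share 20 nt with another miRNA gene. Mir143 (red) lies at 24616 and 29016 CPM, and Mir145a (blue) at 337 and 350 CPM among the middle members.

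Between the pools, 7 of the 17 tested list members, Mir143 among them, were called higher and 3 lower in replicate 2 by the adjusted p alone (exact binomial test), with a median log2 ratio of 0.14, beside 152 higher and 59 lower and a median of 0.15 over all 378 genes. None of the 17 was called with the 2-fold requirement. The renin cell list held 3 genes, and all 3 were called higher in replicate 2 by the adjusted p alone (beside 40.2% of all genes) but not with the 2-fold requirement. Mir330, reported to shape the identity of renin cells, had 142.9 and 196.1 CPM. Mir125b-1 had 317 and 409 CPM and Mir125b-2 had 296 and 343 CPM, close to Mir145a, but both share sequence with another miRNA gene and can stand too low.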

How the data were processed

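Per the labels, total RNA of 2 pools of E15.5 kidneys was sequenced as small RNA. The authors deposited raw read counts per miRNA gene, for both strands together, for the gene's own strand and for the opposite strand, from alignments to mm10 with the GENCODE M4 annotation, as the deposited notes state. For the aligner and counting program, the name is not given in the sources used here. Lines for unmapped, multiply matching, unassigned and ambiguous reads were kept out of library sizes. Those lines held 47.3% and 50.4% of the reads when strand is ignored.

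CPM and percent were computed from own-strand counts. Names and positions came from GENCODE M21, matched by identifier for 1894 of 1973 genes, and 20 nt stretches were compared over its 2202 miRNA hairpins. The libraries' counts were set against each other by two-sided exact binomial tests on genes averaging 10 reads or more, called at a Benjamini-Hochberg adjusted p of at most 0.05 with a 2-fold difference. Labels do not say that the pools are separate litters, and all p-values cover counting error only. With 1 group there was no contrast for edgeR's quasi-likelihood test.

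edgeR 4.0.16 gave TMM factors and the dispersion, and DESeq2 1.42.0 gave size factors (R 4.3.3). Python 3.11.15 with numpy 2.4.6, scipy 1.17.1, pandas 2.3.3 and matplotlib 3.10.9 did the rest. Named genes are both members, the 3 highest of each list, the 3 genes above and below each member by mean CPM, Mir145b, the 3 highest other genes of chromosome 18 and the 3 pairs nearest in ratio. Mir22, Mir146, Mir221, Mir222, Mir26a-1, Mir26a-2 and the genes at 0 are outside that rule and were picked with their values in view. The members and lists were chosen with earlier results of these data known.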

Additional observations from a re-analysis of the deposited data

How the results depend on the processing

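The ratio of Mir143 to Mir145a, 78.0, was 73.1 or 82.9 with 1 library left out. Counting both strands or adding Mir145b could not change it, since both add 0 reads. The shares depend on the denominator. Over all reads of the library, Mir143 held 1.34%, Mir145a 0.0172% and the cluster 1.35%. With Mir10a out of the gene sum they held 3.17%, 0.0406% and 3.21%, and over genes sharing no 20 nt stretch Mir145a held 0.0369%. Left-out replicates gave 2.46 to 2.90% for Mir143, 0.0337 to 0.0350% for Mir145a and 2.495 to 2.94% for the cluster. Counting both strands put Mir145a at rank 130.

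Mir145a changed direction between the libraries with TMM (log2 ratio -0.0728) and DESeq2 size factors (-0.10, adjusted p = 0.0267 by the exact test), because these factors shift all genes alike. By the adjusted p alone, Mir143 was called at its log2 ratio of 0.24. The 23 genes called between the libraries, 22 of them higher in replicate 2, became 9 at a mean count of 100, 35 with any gene that has a read, 60 at 1.5-fold and 211 with no fold threshold. TMM called 22 genes, 15 of them higher, and DESeq2 size factors called 22, with 14 higher. The pair's ratio ranked 8 to 11 among neighbouring pairs under other distances and count filters, and 3 without genes that share sequence. No paired analysis was possible because there is 1 group.

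At this depth a count of 0 allows 0.404 and 0.512 CPM, and the 2 libraries give the spread 1 degree of freedom.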

Other observations

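Mir143 supplied nearly all miRNA reads of chromosome 18. Of the chromosome's 50 miRNA genes in the files, 36 had 0 reads in both libraries and 5 reached 1 CPM in both. Mir143 held 95.3% of the chromosome's own-strand miRNA reads in replicate 1 and 94.98% in replicate 2, and with Mir145a 96.6% and 96.1%. Mir145a was only the fourth gene of the chromosome by mean CPM. Mir187 had 559 and 550 CPM and Mir122, the hepatocyte miRNA, 319 and 628 CPM, and Mir1948 had 21 reads in each library. Mir122 thus lay below Mir145a in replicate 1 and above it in replicate 2, and its log2 ratio of replicate 2 over replicate 1 was 0.98 (95% exact binomial interval 0.90 to 1.05), against 0.24 for Mir143.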
